A study of Arabidopsis thaliana with 4 samples.

Results

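The stearoyl-ACP desaturase genes of Arabidopsis thaliana are 7 loci among the 27444 nuclear protein-coding genes of the gene table used here. They were taken by name: FTM1 (AT1G43800), SSI2 (AT2G43710), the pair AT5G16230 and AT5G16240 on chromosome 5, and the cluster AT3G02610, AT3G02620 and AT3G02630 on chromosome 3. A region belonged to a gene when it overlapped the gene body, or the 500 bp on either side of it, by at least 1 bp. By this rule the genes held 8 of the 20264 regions of histone H3 acetylation (H3ac) and 9 of the 18564 regions of histone H3 lysine 4 trimethylation (H3K4me3). The family was picked because FTM1 had one of the largest folds of H3ac between callus and leaf, so the folds of FTM1 describe the choice and are not a test of it.

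Chromatin immunoprecipitation sequencing recovers the DNA bound to histones that carry a given mark. It was applied to 2 tissues of the ecotype Col-0: mature rosette leaf, and callus that had formed on leaf explants. No treatment was recorded beyond the culture of the callus. The explants were cut from seedlings 2 weeks old and kept for 15 days on CIM, the medium on which callus forms. Tissue and culture thus changed together and cannot be told apart. The age of the mature leaf is not given here, so a difference in age cannot be told apart either. The 4 libraries are leaf H3ac, callus H3ac, leaf H3K4me3 and callus H3K4me3, with 1 library each, so replicates are lacking and every difference is one between single libraries. The callus library was 1.369 times as deep as the leaf library for H3ac and 1.016 times for H3K4me3, as the spacing of the tag values shows, and the total depth is unknown. In a whole tissue, more cells with the mark and more of the mark per cell cannot be told apart.

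Stearoyl-ACP desaturases are soluble plastid enzymes that place the first double bond in a fatty acid while it is still bound to acyl carrier protein, which yields oleate from stearate. They draw electrons from ferredoxin, and their product feeds membrane lipids and seed oil. SSI2, also called FAB2, is the main isoform in leaves, and its mutants are short of oleate, dwarfed and constitutively active in defence. FTM1 was named for its activity in the shoot meristem at floral transition, also bears the name SAD6, and is among the genes that low oxygen induces in Arabidopsis. The gene table gives the other 5 loci no symbol, and their single roles are not described here. H3ac and H3K4me3 are both found mostly towards the start of genes in use.

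The tissue labels were held against short marker lists, which were chosen with earlier results of these data known. Of all genes with a region, 7.03% for H3ac and 8.01% for H3K4me3 were listed by the authors as higher in callus. Of 11 genes for root stem cell and callus factors, 9 carried H3ac, 7 of them so listed. For H3K4me3, 10 carried the mark, 9 of them listed. Those listed for both marks were BBM, WOX11, PLT1, PLT2, PLT3, PLT5 and PLT7, and LBD16 and LBD18 were listed for H3K4me3. WOX5 had regions of both marks within the same window and was listed for neither, and LBD29 had no region of either mark. Of 12 leaf photosynthesis genes none was listed as higher in callus for either mark. Of all genes with a region, 3.26% for H3ac and 2.9% for H3K4me3 had only regions called in leaf alone. Such regions were the sole regions of 3 of the 5 photosynthesis genes with H3ac, and of 9 of the 12 with H3K4me3. For H3ac these were CAB1, LHCA2 and RBCS1B, and for H3K4me3 NPQ4, CAB2, CAB3, LHCB2.2, LHCB2.3 and the Rubisco small subunit genes RBCS1A, RBCS1B, RBCS2B and RBCS3B. Light-harvesting and Rubisco genes include near copies, so single members are uncertain.

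Among the desaturase genes FTM1 stood apart in both marks, and the other 6 carried marks that were for the most part called in leaf and callus alike. For H3ac, 6 of the 7 genes had a region, as did 69.2% of all protein-coding genes, and 1 of the 6, FTM1, was listed by the authors as higher in callus, where listing means at least 2-fold more tags and a Poisson p of at most 0.01. Over all protein-coding genes with an H3ac region 7.03% were so listed. For H3K4me3 all 7 genes had a region, as did 73.3% of all protein-coding genes, and 3 were listed, FTM1, AT5G16230 and AT5G16240, where 8.01% of genes with an H3K4me3 region were. Because the family was chosen from this comparison, nothing is read from these shares.

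**Figure D1:**
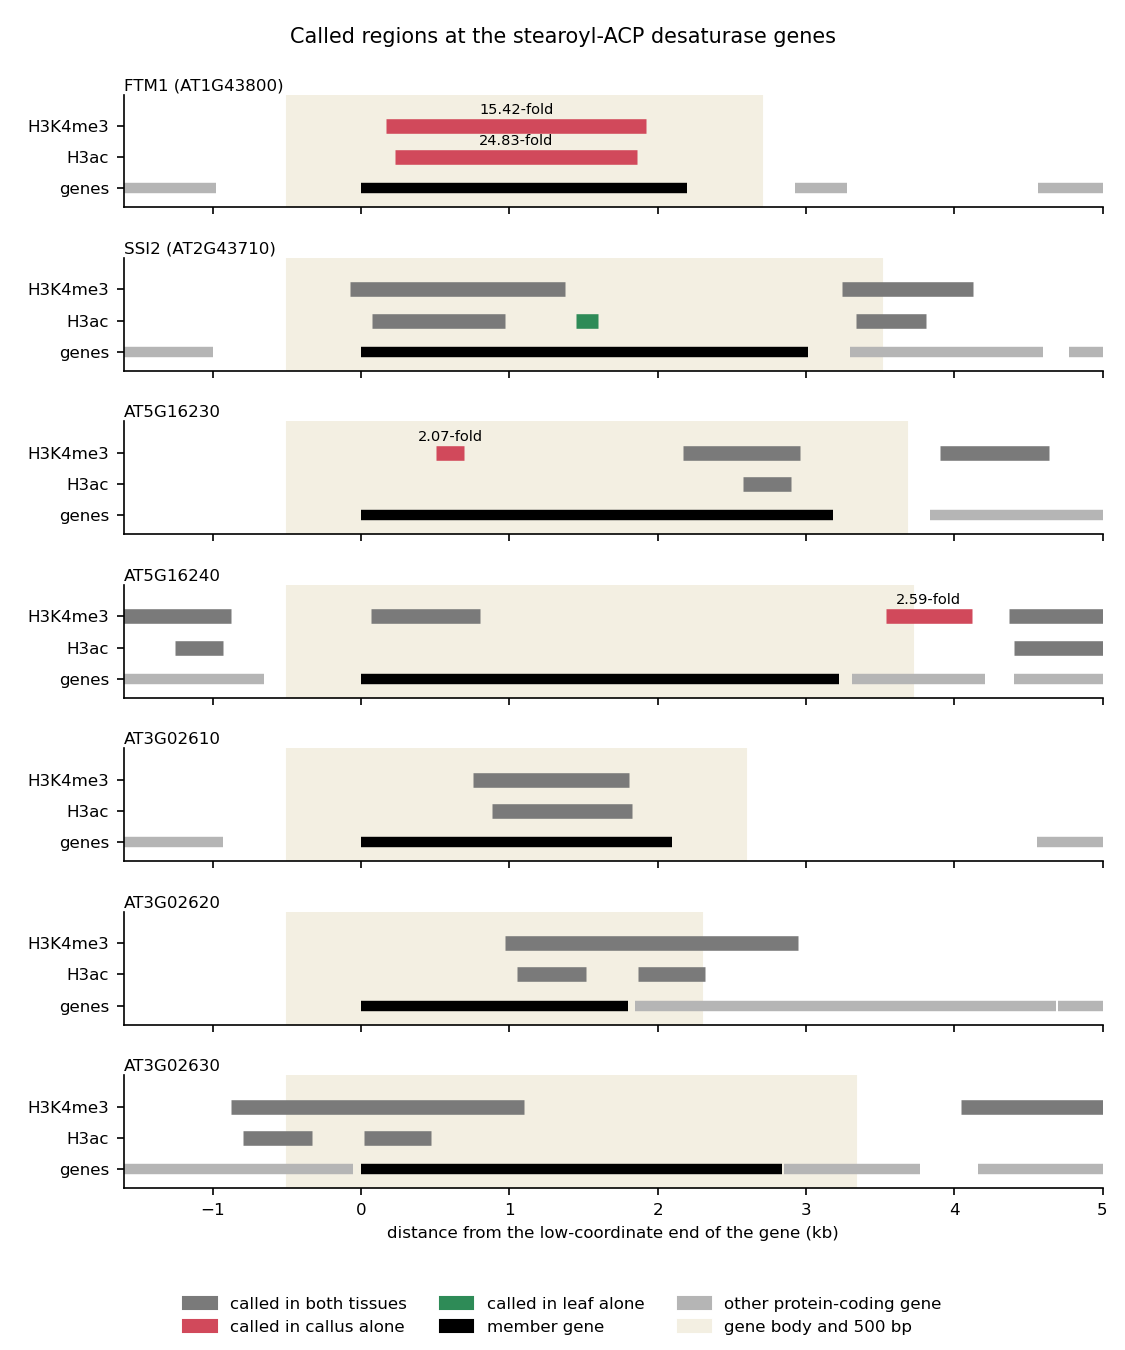
Regions of H3ac and H3K4me3 at each desaturase gene, drawn as bars against the distance in kb from the low-coordinate end of the gene, with colour for the tissue in which the region was called and the fold of callus over leaf above listed regions. FTM1 is the one gene whose regions of both marks were called in callus alone, and they cover most of it, while the bars of the other genes are mostly grey (called in both) and cover smaller parts.

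The FTM1 locus carried 1 region of each mark, and both were called in callus alone. Of all genes with a region of the mark, 5.37% for H3ac and 3.99% for H3K4me3 had only such regions, and of the desaturase genes FTM1 alone did. The H3ac region ran from 16577749 to 16579379 on chromosome 1 (TAIR10) and the H3K4me3 region from 16577691 to 16579446. The authors counted tags in a short window at the centre of each region. In the authors' deposited table that window of the H3ac region held 37.3 scaled tags in callus and 1.5 tags in leaf. The tag number in callus was close to the median of listed H3ac regions, 35.8, whereas the leaf number lay far under the median of 12. Of the 1617 listed regions 14 had as few leaf tags, and this and the later counts of regions or genes that reach FTM1 include FTM1 itself. The fold in the authors' deposited table was 24.83, the 8th largest of those 1617, and the exact 95% interval from both tag numbers ran from 5.54 to 354.

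For H3K4me3 the authors' deposited table gave the FTM1 region 115.7 scaled tags in callus and 7.5 tags in leaf. Callus was again near the median of the listed regions, 108.3, and leaf under the median of 29.5. The fold was 15.42 in the authors' deposited table, with an interval of 7.42 to 37.8, and ranked 106th of 1359. The intervals of the H3ac and H3K4me3 folds overlap over the whole H3K4me3 range, so these tags cannot order the marks. Intervals cover counting error only, and regions listed for a high fold tend to have folds that lie too high.

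**Figure D2:**
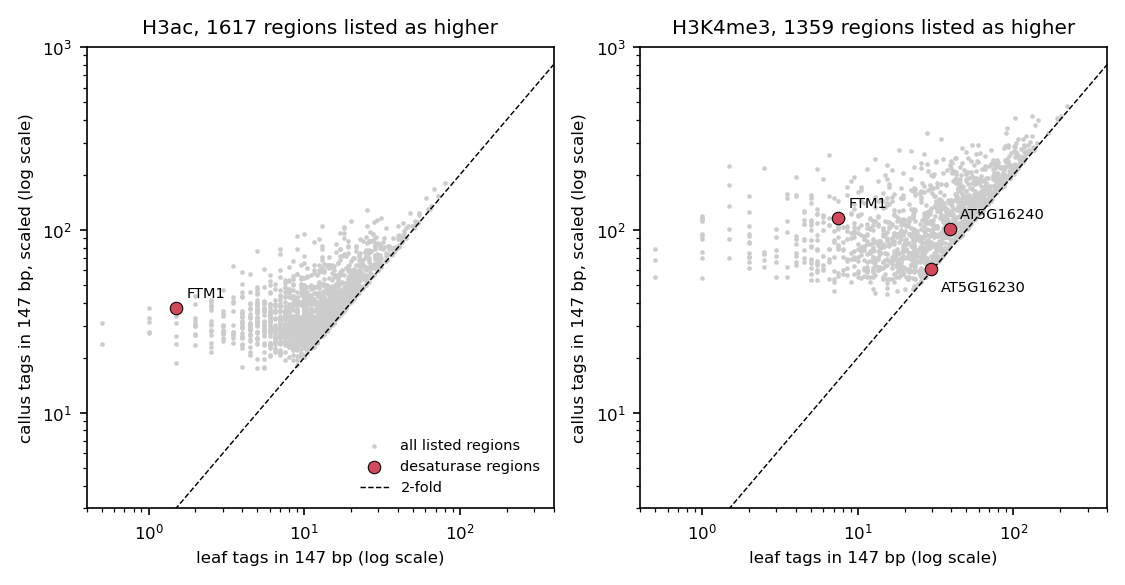
Scaled callus tags against leaf tags in the counted window of every listed region, both on log scales, for H3ac (left) and H3K4me3 (right), with the regions at desaturase genes in red and the 2-fold line dashed. FTM1 lies at the left, with 1.5 leaf tags for H3ac and 7.5 for H3K4me3, while the regions named for AT5G16230 and AT5G16240 lie near the 2-fold line at 29.5 and 39 leaf tags.

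The marks at FTM1 covered much of the gene. The H3ac region was 1631 bp wide and took in 74.1% of the gene body, and the H3K4me3 region was 1756 bp wide and took in 79.7%. All of the acetylated stretch lay inside the H3K4me3 region. At the other 6 genes H3ac covered between 0% (AT5G16240) and 44.9% (AT3G02610) of the body and H3K4me3 between 22.9% (AT5G16240) and 50.2% (AT3G02610). Among all genes of the same length range, 1798 to 3222 bp, whose H3ac regions were called in callus alone, the median cover was 12.3%, and 5 of 348 (1.44%) were covered as much as FTM1. For H3K4me3 the median of such genes was 22.9% and 8 of 286 (2.80%) reached the cover of FTM1. Wide cover was more common among genes of this length listed as higher in callus, with medians of 34.4% (H3ac) and 41.2% (H3K4me3), where 50 of 511 (9.78%) and 60 of 689 (8.71%) reached FTM1. Among all genes of this length with a region 5.45% and 5.20% did. These medians and shares include genes whose regions lay only in the 500 bp flanks, which count with 0% cover.

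Most regions that were called in callus alone were narrow, with a median width of 235 bp for H3ac and 379.5 bp for H3K4me3. Just 15 of 2932 such H3ac regions and 18 of 1356 such H3K4me3 regions were as wide as that of FTM1. The authors' scores of the FTM1 regions, 407 (H3ac) and 403 (H3K4me3), were reached by 37 and 49 regions called in callus alone. Within the whole list of each mark these scores lay at the 76.7th and 43.0th percentiles.

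**Figure D3:**
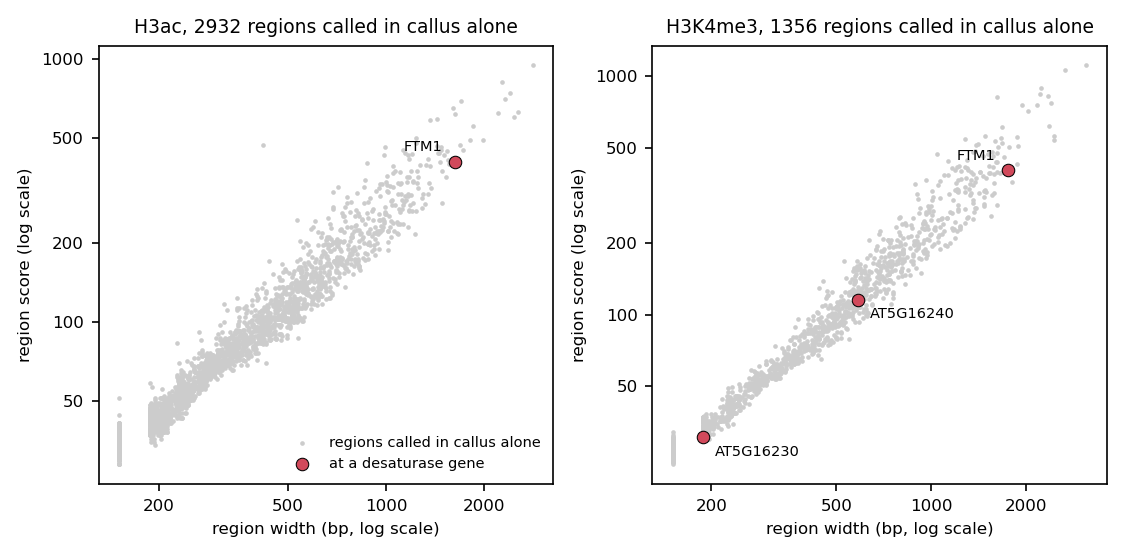
Score against width in bp, both on log scales, of the regions called in callus alone, for H3ac (left) and H3K4me3 (right), with regions at desaturase genes in red. FTM1 lies near the wide, high-scoring end in both panels at 1631 and 1756 bp, and the AT5G16230 region near the narrow end at 188 bp.

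FTM1 also stood alone on its stretch of chromosome 1. Its neighbours, TED6 (a gene of tracheary element differentiation) 979 bp away on the low-coordinate side and AT1G43810 at 724 bp on the other, had no region of either mark in either tissue. The next H3ac region lay 28393 bp away on one side and 37363 bp on the other, and the next H3K4me3 region 28375 bp and 37291 bp. Of the 18981 genes with an H3ac region 48 (0.253%) were as far from the next one on their nearer side, and of the 20127 genes with an H3K4me3 region 41 (0.204%). The surroundings are poor in genes: within 50 kb on either side of FTM1 there were 9 other protein-coding genes, against 29 to 40 around the other desaturase genes. The same stretch held 5 regions of each mark, against 23 to 31 H3ac and 21 to 30 H3K4me3 regions around the others.

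SSI2 carried both marks in both tissues and was listed for neither. Its main H3K4me3 region, called in leaf and callus, ran from 18119801 to 18121251 on chromosome 2, was 1451 bp wide, and scored 834.55, at the 90.7th percentile of its list. The H3ac region beneath it spanned 18119945 to 18120841 with a score of 345.45, at the 68.7th percentile of its list. Both sat at the low-coordinate end of the gene. A further H3ac region of 151 bp in the middle of the gene, 18121321 to 18121471, was called in leaf alone with a score of 33.6, at the 2.80th percentile, among the weakest in the list. The authors' tags were listed only for regions higher in callus, so the leaf and callus tags of SSI2 were not analysed here, and "not listed" says that callus did not pass both limits at the centre of the region. The remaining region of each mark counted for SSI2 lay in the next gene, AT2G43720, 324 bp (H3ac) and 227 bp (H3K4me3) beyond the end of SSI2. AT2G43700, the neighbour on the other side, likewise carried H3ac and H3K4me3 in leaf and callus.

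In the chromosome 3 cluster every region was called in both tissues and none was listed. AT3G02610 had 1 region of each mark, in the same part of the gene. Its H3ac region, 556511 to 557453, scored 664.6, the highest of the family and at the 93.4th percentile, whereas its H3K4me3 region, 556384 to 557436, scored 399.3 at the 42.5th percentile. AT3G02620 and AT3G02630 showed the opposite order. These genes lie 50 bp apart, and 1 H3K4me3 region of 1974 bp, 561154 to 563127, ran across the gap with a score of 1010.35, the highest of the family and at the 95.7th percentile.

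Under that H3K4me3 region lay a separate H3ac region in each gene. The one in AT3G02620, 561233 to 561698, scored 200.3 (42.5th percentile) and the one in AT3G02630, 562047 to 562502, scored 113.2 (25.5th percentile). Each was also within 500 bp of the other gene, so these 2 regions and the H3K4me3 region count for both. How the score of a region called in both tissues was combined from the separate calls is not given in the sources used here, so percentiles describe a place within each list and not a tissue. AT3G02640, the next gene 13 bp beyond AT3G02630, had no region of either mark, and LPP3 (a lipid phosphate phosphatase gene) before AT3G02610 had 1 of each, called in both tissues.

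The chromosome 5 pair was the least marked. The H3ac region of AT5G16230, 5305484 to 5305806, was called in both tissues and scored 73.95 (17.4th percentile), and AT5G16240 had no H3ac region. The nearest one was 934 bp away, in AT5G16230. AT5G16220, the gene before the pair, had regions of both marks, called in both tissues and not listed. For H3K4me3 each gene held a region called in both tissues and not listed, with scores of 175.7 (AT5G16230, 5305078 to 5305866) and 157.35 (AT5G16240, 5306809 to 5307545), at the 18.7th and 16.9th percentiles. In AT5G16230 these regions of both marks also overlap AT5G16235, annotated as a long non-coding RNA, and reads of the overlapping genes cannot be told apart.

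Each of the pair also had a listed H3K4me3 region called in callus alone, and both were near the 2-fold limit. In AT5G16230 this was a region of 188 bp, 5303413 to 5303600, away from its other H3K4me3 region. The authors' deposited table gave it 61 scaled callus and 29.5 leaf tags, a fold of 2.07 with an interval of 1.31 to 3.32. It ranked 1275th of 1359. It was lost when listing also asked for an exact binomial test of callus against leaf tags, Bonferroni-adjusted over all regions of the mark. That test compares these 2 libraries and not the tissues, and it kept 1189 of the 1359 listed regions. The leaf tag number equals the median of listed regions, so a call in callus alone does not mean that leaf tags were missing there.

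The listed region counted for AT5G16240 was 584 bp wide, 5310278 to 5310861, and lay 317 bp beyond the gene, wholly within the next gene, AT5G16250. In the authors' deposited table it had 100.9 scaled callus and 39 leaf tags, a fold of 2.59 with an interval of 1.77 to 3.84, and it was kept by that test. With regions given to genes by that central window, or with no flanking window, AT5G16240 was no longer listed and 2 members were left. The farthest regions taken in by the window were 317, 324 and 332 bp from a desaturase gene, and the nearest outside it, an H3K4me3 region in AT5G16240, was 721 bp from AT5G16230. The desaturase genes have related coding sequences, and whether reads were shared between copies was not tested.

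The other genes of fatty acid metabolism were listed about as often as genes in general. Of 49 genes on the fatty acid lists 46 had a region of each mark, and 4 were listed as higher in callus for H3ac and 4 for H3K4me3, 8.70% in each case beside 7.03% and 8.01% over all genes with a region. Regions called in leaf alone were the sole regions of none of them, and of 3.26% (H3ac) and 2.9% (H3K4me3) of all genes with a region. Among 18 genes of fatty acid synthesis up to stearate, 1 was listed for H3ac and 2 for H3K4me3. BCCP2, a biotin carrier subunit of plastid acetyl-CoA carboxylase, was listed for both marks. In the authors' deposited table it had 62.5 scaled callus and 15 leaf tags for H3ac, a 4.16-fold difference (2.39 to 7.77). Its H3K4me3 tags in the authors' deposited table were 126.5 and 22.5, a 5.62-fold difference (3.57 to 9.23). KASI, a condensing enzyme, had 2.42-fold H3K4me3 (1.79 to 3.32) in the authors' deposited table, in a region centred outside the gene.

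Genes for the partners of the reaction, for later steps of lipid synthesis and for regulators gave 1 listed gene. Of all genes with a region 7.03% (H3ac) and 8.01% (H3K4me3) were listed. Of 10 acyl carrier, ferredoxin and ferredoxin reductase genes 9 had regions of each mark, and 1, FD3, a ferredoxin gene, was listed, for H3K4me3. The authors' deposited table gave FD3 300.8 scaled callus and 128.5 leaf tags, or 2.34-fold (1.90 to 2.90). The list drawn as use of oleate held 7 genes, such as the thioesterase genes FaTA and FATB and the acyltransferase genes ATS1 and ATS2. Not all of these act on oleate, and none was listed for either mark. Of the regulators, WRI1 and its relatives WRI3 and WRI4 had regions of both marks and were not listed, and MYB115 and MYB118, which switch on desaturase genes of seed endosperm, had no region in either tissue.

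Among 9 membrane-bound desaturase genes, which are unrelated in sequence to the soluble enzymes, 3 were listed for H3ac and 1 for H3K4me3. Of all genes with a region 7.03% and 8.01% were so listed. ADS1, an acyl-CoA desaturase-like gene, was listed for both. In the authors' deposited table ADS1 had 32.5 scaled callus and 8 leaf tags for H3ac, or 4.06-fold (1.89 to 9.99). For H3K4me3 its tags in the authors' deposited table were 86.6 and 20, or 4.33-fold (2.64 to 7.43). FAD3, the linoleate desaturase gene of the endoplasmic reticulum, had 4.2-fold H3ac in the authors' deposited table (1.96 to 10.3). The oleate desaturase gene FAD2 had 3.01-fold in the authors' deposited table (1.75 to 5.45), in a region centred outside the gene. None of the 3 H3ac regions was kept by the exact test, and the H3K4me3 region of ADS1 was. Across all listed genes that test kept 400 of 1334 for H3ac and 1428 of 1612 for H3K4me3.

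**Figure D4:**
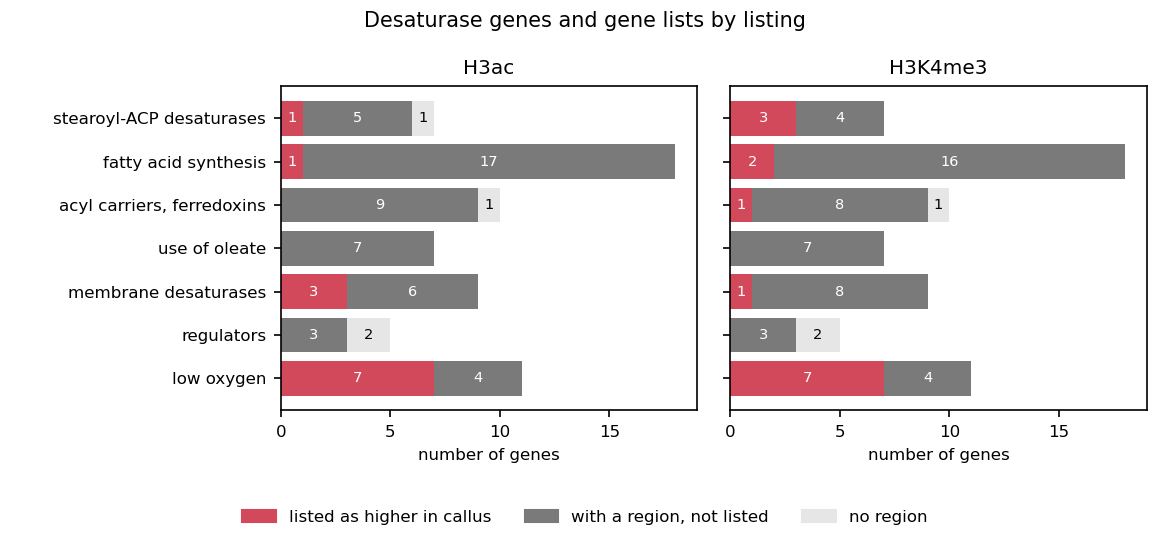
Number of genes in each list that were listed as higher in callus, had a region and were not listed, or had no region, for H3ac (left) and H3K4me3 (right). The low-oxygen list has 7 of 11 genes listed for each mark, and the lists of fatty acid genes have between 0 and 3.

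Of 11 other genes of the response to low oxygen, to which FTM1 also belongs, 7 were listed for H3ac and 7 for H3K4me3. Over all genes with a region 7.03% and 8.01% were. Listed for both marks were 6 of the 11, and 590 of all 27444 nuclear protein-coding genes. These bases are unlike. All 11 had regions of both marks, whereas 8463 of the 27444 had no H3ac region and 7317 no H3K4me3 region. The list holds no desaturase and was chosen with results of these libraries known. ADH1, the alcohol dehydrogenase gene of fermentation, had 74.1 scaled callus and 18 leaf tags for H3ac in the authors' deposited table, 4.12-fold (2.48 to 7.22). Its H3K4me3 tags in the authors' deposited table were 102.4 and 10, 10.24-fold (5.35 to 22.0). The pyruvate decarboxylase gene PDC1 had 3.82-fold H3ac (1.98 to 8.07) and 10.26-fold H3K4me3 (5.80 to 19.8) in the authors' deposited table.

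The sucrose synthase gene SUS4 was the most extreme of that list, with 9.64-fold H3ac (2.77 to 60.7) in the authors' deposited table, and for H3K4me3 112.2 scaled callus tags against 1 leaf tag. Its relative SUS1 had 3.65-fold H3ac and 5.42-fold H3K4me3 in the authors' deposited table. PCO1 and PCO2, genes for the cysteine oxidases that sense oxygen, had 3.76 and 4.36-fold H3ac and 9.08 and 7.35-fold H3K4me3 in the authors' deposited table. The phytoglobin gene HB1 was listed for H3K4me3 alone (6.75-fold) and the trihelix factor gene HRA1 for H3ac alone (2.71-fold, in a region centred outside the gene) in the authors' deposited table. The exact test kept 5 of the 7 H3ac listings, losing PDC1 and HRA1, and all 7 for H3K4me3. Across all listed genes it kept 400 of 1334 for H3ac and 1428 of 1612 for H3K4me3. The transcription factor genes ERF73, ERF71 and LBD41 had regions of both marks and were not listed. In this list 6 of the 7 H3ac folds lay between 2.71 and 4.36, and FTM1 had 24.83 in the authors' deposited table, but the interval of FTM1 reaches down to 5.54 and those of several list genes reach above that.

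Across the 590 genes listed for both marks, FTM1 ranked 6th by the smaller of its 2 folds. The 5 genes nearest to it, by the distance between their pairs of log2 folds, were OSM34, AT5G53990, AT3G22800, AT3G15240 and AHL19, at distances of 0.19, 0.60, 0.64, 0.71 and 0.79. OSM34, an osmotin-like gene, had 35.1 scaled callus and 1.5 leaf tags for H3ac in the authors' deposited table, almost the numbers of FTM1, and 68.4 and 5 for H3K4me3. AHL19, a gene for an AT-hook DNA-binding protein, had 63.5 and 3.5 tags for H3ac and 260.4 and 26.5 for H3K4me3 in the authors' deposited table. For all 5 genes, as for FTM1, every region of both marks was called in callus alone. Of all genes with a region, 5.37% for H3ac and 3.99% for H3K4me3 had only such regions. The 5 genes were picked for folds near those of FTM1, which go with few leaf tags, so these calls are no separate likeness. Likeness here rests on 2 folds per gene from the same 4 libraries, and the intervals of the folds are wider than the distances.

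**Figure D5:**
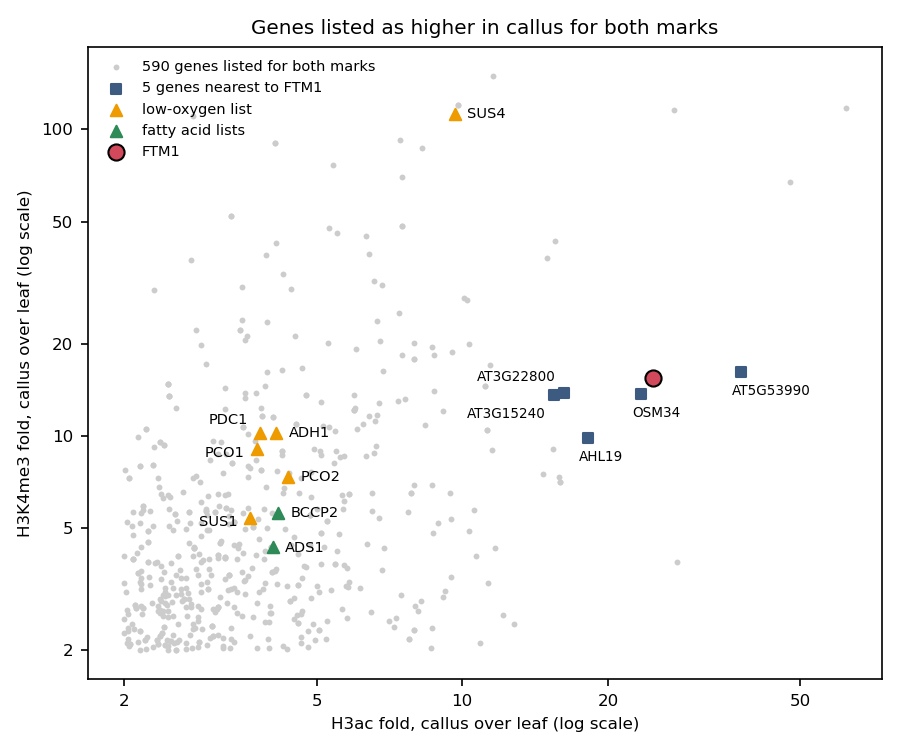
Largest H3K4me3 fold against largest H3ac fold of callus over leaf, on log scales, for the 590 genes listed as higher for both marks (grey), with FTM1 in red, its 5 nearest genes as squares, and the low-oxygen and fatty acid list genes as triangles. FTM1 lies at 24.83 and 15.42-fold, to the right of the low-oxygen genes, of which SUS4 is the highest.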

How the data were processed

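H3ac and H3K4me3 were profiled in leaf and callus, 1 library each. HOMER 4.10.4, SAMtools 1.11, Bowtie2 2.3.4.3 and the TAIR10 build appear in the submitters' processing notes without their roles. Settings for calling regions were not found in the labels or headers. Per the file headers, regions were called per library and merged with mergePeaks, and each carries a deposited score. The deposited count of merged calls per region was not used. Per the file headers, HOMER's comparison of peaks kept regions whose ratio (fold) reached 2 with a Poisson p-value no higher than 0.01. The deposited tag signal is that in 147 bp around the region centre, callus scaled to leaf. No input library enters the tables, and only regions higher in callus have tags.

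Regions were joined to genes of the RefSeq table (assembly TAIR10.1), whose coordinates were used for overlap and distance alone and are not printed. Of the H3K4me3 regions shared by the tissues 94.3% had their centre in a gene, and 64.6 to 67.8% when shifted by 1000 to 4000 bp. The table has no strand. All 83 list genes matched it. No sequences of these genes were used here. A gene counted as listed when any of its regions was, with its largest fold.

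Intervals are exact conditional 95% intervals from unscaled tags, a tag taken as 1 read, and they were tried on simulated tags. The simulated tags were whole Poisson numbers, with folds set under those of FTM1. They had no PCR copies and no choice for high folds, so that check does not extend to these features of the data. The exact test is a one-sided binomial test on tags rounded to whole numbers, with the Bonferroni-adjusted p under 0.05. PCR copies are not independent, so intervals cover counting error only. Leaf tags lie on steps of 0.5. Named genes were all 7 desaturase genes, their neighbours, list genes listed as higher or called in leaf alone, and the 5 genes nearest FTM1; other list genes were named after their values were seen. Members and lists were chosen with earlier results of these data known. Python 3.11.15, pandas 2.3.3, SciPy 1.17.1 and matplotlib 3.10.9 were used.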

Additional observations from a re-analysis of the deposited data

How the results depend on the processing

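The alternatives for the folds of FTM1 could not reverse their direction, so they are no test of it. With 0.5 tags taken as 1 read the folds stay the same by construction. The intervals were then 8.27 to 123 for H3ac and 9.16 to 28 for H3K4me3. With no depth scaling the folds were 34.0 and 15.7. FTM1 has 1 listed region of each mark, so summing its listed regions adds nothing. With regions scoring at or above the median of their list, 3 of the desaturase genes kept an H3ac and 3 an H3K4me3 region, and 0 were listed for H3K4me3, since the FTM1 region itself scores under that median. At 4-fold, 1 desaturase gene, FTM1, was listed for H3K4me3. Of the 60 fatty acid and low-oxygen genes, 11 were listed for each mark, 4 of the 49 fatty acid and 7 of the 11 low-oxygen genes. Of all genes with a region 7.03% (H3ac) and 8.01% (H3K4me3) were listed, a share not worked out at 4-fold or at the score limit. For H3ac, 6 of the 60 were listed at 4-fold, 6 by the exact test and 7 with scores at or above the median. For H3K4me3, 3 were listed with scores at or above the median. The other alternatives moved no count by more than 1.5 times. No paired analysis was possible because each group has 1 library. The H3ac fold of FTM1 rests on 1.5 leaf tags.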
